A study of Mus musculus with 12 samples.

Results

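AP-1 and immediate early factors are transcription factors, many of whose genes, though not all, are switched on within minutes of a stimulus. Here 10 of them were followed in sorted intestinal dendritic cells (DCs) of the mouse: Fos, Fosb, Jun, Junb, Jund, Atf3, Egr1, Klf2, Klf6 and Nr4a1. They were chosen by name out of 53801 genes in the count tables, and all 10 passed the filter on low counts. RNA was sequenced from CD103+CD11b- and CD103-CD11b+ gut DCs of WT mice and of Cbfb-cKO mice, with 3 samples in each of the 4 groups, 12 samples in all. In the Cbfb-cKO mice, floxed alleles of Cbfb, the shared partner subunit of the Runx transcription factors, are deleted by a Cre driven by the CD11c promoter, so that deletion follows CD11c expression and is not limited to DCs; the strain is given as a mixed background. The 3 samples of a group came from 3 mice. The age of the mice used for sequencing and the presence of the Cre in the WT mice are not given in the sources used here, and nothing says whether samples with the same replicate number shared a day or, between subsets, a mouse.

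AP-1 is a dimer of a Fos family protein with a Jun family protein, or of Jun family proteins with each other, and binds short sites in promoters and enhancers. Transcription of the rapidly induced genes needs no new protein and starts when MAP kinases or calcium signals act on factors already bound to their promoters. The response ends quickly because the RNAs and proteins are short lived. Many of these genes are known to respond when a tissue is cut, warmed and digested with enzymes, and gut DCs are obtained by incubating the tissue with EDTA and then with collagenase at body temperature before sorting.

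The libraries held 2161929 to 5863484 counts on genes, with a median of 4144279, which is 32.7 to 38.8% of the reads given to the counter. In every group the library numbered 3 had the highest share of reads on genes, at 35.9, 38.7, 38.8 and 35.6%, against 32.7 to 36.7% in the other 8 libraries. By depth it was the deepest library of WT CD103+CD11b- cells and the shallowest of both Cbfb-cKO groups. The sorted subsets fitted their labels by markers: a list of 8 cDC1 genes summed to 5138 to 7772 CPM (read counts scaled by library size) in CD103+CD11b- samples and to 1920 to 3062 CPM in CD103-CD11b+ samples, while a list of 7 cDC2 genes summed to 80.0 to 590 CPM and 946 to 1511 CPM. The lists include Itgae (CD103) and Itgam (CD11b), the proteins used for the sort, so part of this fit was fixed by it. Wdfy4 alone gave 1504 to 2374 CPM of the cDC1 sums in CD103-CD11b+ samples. Cbfb itself was counted over the whole gene, where its level was 161 to 228 CPM in WT and 170 to 290 CPM in Cbfb-cKO samples, so that these counts do not check the genotype labels.

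Promoter sequences of 9 of the 10 genes, all but Egr1, were taken from RefSeq, in build GRCm38.p6, and the 250 bases before each start were searched on both strands. An exact MEF2 box, the site of MEF2 factors such as Mef2c, was found in the windows of 3 genes, Jun, Atf3 and Klf2, while 0.508% of 32851 promoters of the same length held one. The windows of Jun and Atf3 are shown because these 2 genes differed most between the DC subsets on the log2 scale. Capitals mark the MEF2 box, at 33 to 24 bases before the start of Jun and 22 to 13 bases before that of Atf3. Both genes lie on the minus strand, and the sequences run 5′ to 3′ along the gene.
Jun, chr4:95052223-95052472, minus strand: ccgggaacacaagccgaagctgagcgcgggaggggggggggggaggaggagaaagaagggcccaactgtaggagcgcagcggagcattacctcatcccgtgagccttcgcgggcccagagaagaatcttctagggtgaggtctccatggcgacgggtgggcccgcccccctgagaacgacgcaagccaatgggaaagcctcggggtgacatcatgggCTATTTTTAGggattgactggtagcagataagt
Atf3, chr1:191183334-191183583, minus strand: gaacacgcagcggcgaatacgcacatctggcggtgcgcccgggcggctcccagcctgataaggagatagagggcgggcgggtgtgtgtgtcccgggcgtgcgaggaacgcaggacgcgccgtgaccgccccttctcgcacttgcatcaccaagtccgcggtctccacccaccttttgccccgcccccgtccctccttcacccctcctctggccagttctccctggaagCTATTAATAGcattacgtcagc

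The box of Klf2 lay 118 to 109 bases before its start. The other letters searched were rare or absent in the 9 windows: TATAAA was found in 1, that of Fos, against 12.4% of all promoters, and the CRE TGACGTCA (1.55% of all promoters), the AP-1 site TGACTCA (4.46%), the CArG box bound by Srf (1.47%) and the Runx core TGTGGT or TGCGGT (18.6%) in 0 of 9. A match describes the letters in this window and no binding was measured.

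All 10 genes were among the more abundant transcripts of these cells. Per kilobase of exon, the order of the mean over 12 samples was Fos (254 ± 65.7 CPM per kb), Junb (167 ± 57.7), Nr4a1 (155 ± 48.1), Klf6 (133 ± 44.0), Atf3 (130 ± 72.1), Egr1 (128 ± 38.5), Fosb (118 ± 39.0), Jun (108 ± 48.3), Klf2 (91.3 ± 39.4) and Jund (40.6 ± 13.97), each with the SD over all 12. The ranges of all neighbours in that order overlapped, whereas those of Fos (182 to 368 CPM per kb) and Jund (26.5 to 65.4 CPM per kb) lay apart. Fos stood at the percentile 99.9 of all genes tested by this level, and 9 of the 10 stood above the percentile 99. The counting took no account of strand, and the exons of 3 genes share bases with an annotated gene on the opposite strand: Jun with Junos (232 bases), Junb with Prdx2 (173 bases) and Jund with Gm11175 (877 of its 1668 exon bases). Reads on shared bases cannot be assigned, while the length used holds all exon bases. The level of Jund in particular is therefore uncertain and can be read too low, as can its place in the order.

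Jun, the main partner of Fos in AP-1, showed the widest gap between the subsets in WT mice. Jun was at 182, 177 and 301 CPM in replicates 1, 2 and 3 of WT CD103+CD11b- cells, at 340, 503 and 524 CPM in WT CD103-CD11b+ cells, at 186, 176 and 441 CPM in Cbfb-cKO CD103+CD11b- cells and at 297, 378 and 628 CPM in Cbfb-cKO CD103-CD11b+ cells. The WT subsets did not overlap and the Cbfb-cKO subsets did, because the third CD103+CD11b- sample was above 2 of the CD103-CD11b+ samples. Atf3, a stress-induced bZIP factor that often represses its targets, had the same layout. Atf3 was at 124, 160 and 229 CPM in WT CD103+CD11b- cells, at 263, 346 and 428 CPM in WT CD103-CD11b+ cells, at 122, 134 and 366 CPM in Cbfb-cKO CD103+CD11b- cells and at 238, 292 and 657 CPM in Cbfb-cKO CD103-CD11b+ cells. Its WT subsets were again apart, and in the Cbfb-cKO mice replicate 3 of the CD103+CD11b- cells was again above replicates 1 and 2 of the other subset.

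Fos and Fosb, the Fos family partners, differed less between the groups on the log2 scale. Fos was at 641, 514 and 429 CPM in WT CD103+CD11b- cells, at 475, 722 and 680 CPM in WT CD103-CD11b+ cells, at 500, 482 and 866 CPM in Cbfb-cKO CD103+CD11b- cells and at 469, 517 and 863 CPM in Cbfb-cKO CD103-CD11b+ cells. All 4 groups overlapped, and the Cbfb-cKO samples numbered 3 were the highest of the 12. Fosb was at 579, 530 and 617 CPM in WT CD103+CD11b- cells, at 677, 901 and 926 CPM in WT CD103-CD11b+ cells, at 504, 487 and 1027 CPM in Cbfb-cKO CD103+CD11b- cells and at 595, 702 and 1267 CPM in Cbfb-cKO CD103-CD11b+ cells. As for Jun, its WT subsets lay apart and its Cbfb-cKO subsets overlapped.

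Junb and Jund, the other Jun family members, are commonly contrasted with Jun as weaker activators. Junb ranged from 267 to 308 CPM in WT CD103+CD11b- cells and from 319 to 500 CPM in WT CD103-CD11b+ cells, and from 280 to 466 CPM and 324 to 726 CPM in the same subsets of the Cbfb-cKO mice. Jund had the lowest counted level of the 10 genes, from 44.2 to 109 CPM over all samples, with 167 to 395 reads behind each value. Its groups all overlapped.

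Egr1 is a zinc finger factor induced through Srf and Elk proteins. Egr1 was at 464, 399 and 387 CPM in WT CD103+CD11b- cells, at 453, 820 and 711 CPM in WT CD103-CD11b+ cells, at 460, 495 and 767 CPM in Cbfb-cKO CD103+CD11b- cells and at 458, 581 and 869 CPM in Cbfb-cKO CD103-CD11b+ cells. Replicate 1 was at 453 to 464 CPM in every group, and the groups parted only in replicates 2 and 3. Nr4a1, the orphan nuclear receptor Nur77, was at 423, 401 and 399 CPM in WT CD103+CD11b- cells, at 469, 549 and 620 CPM in WT CD103-CD11b+ cells, at 412, 493 and 714 CPM in Cbfb-cKO CD103+CD11b- cells and at 486, 569 and 984 CPM in Cbfb-cKO CD103-CD11b+ cells. Its WT subsets did not overlap.

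Klf2, a Krüppel-like factor known for restraining activation of immune and endothelial cells, had the highest SD of log2 CPM within groups of the 10 genes. Klf2 was at 84.8, 112 and 190 CPM in WT CD103+CD11b- cells, at 78.5, 170 and 266 CPM in WT CD103-CD11b+ cells, at 143, 142 and 323 CPM in Cbfb-cKO CD103+CD11b- cells and at 119, 176 and 218 CPM in Cbfb-cKO CD103-CD11b+ cells. No pair of groups was apart. Klf6, a related factor, was at 517, 501 and 533 CPM in WT CD103+CD11b- cells, at 385, 446 and 560 CPM in WT CD103-CD11b+ cells, at 560, 579 and 1018 CPM in Cbfb-cKO CD103+CD11b- cells and at 474, 512 and 946 CPM in Cbfb-cKO CD103-CD11b+ cells. It was the only one of the 10 genes whose WT and Cbfb-cKO samples lay apart in either subset, and this was so in CD103+CD11b- cells.

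**Figure D1:**
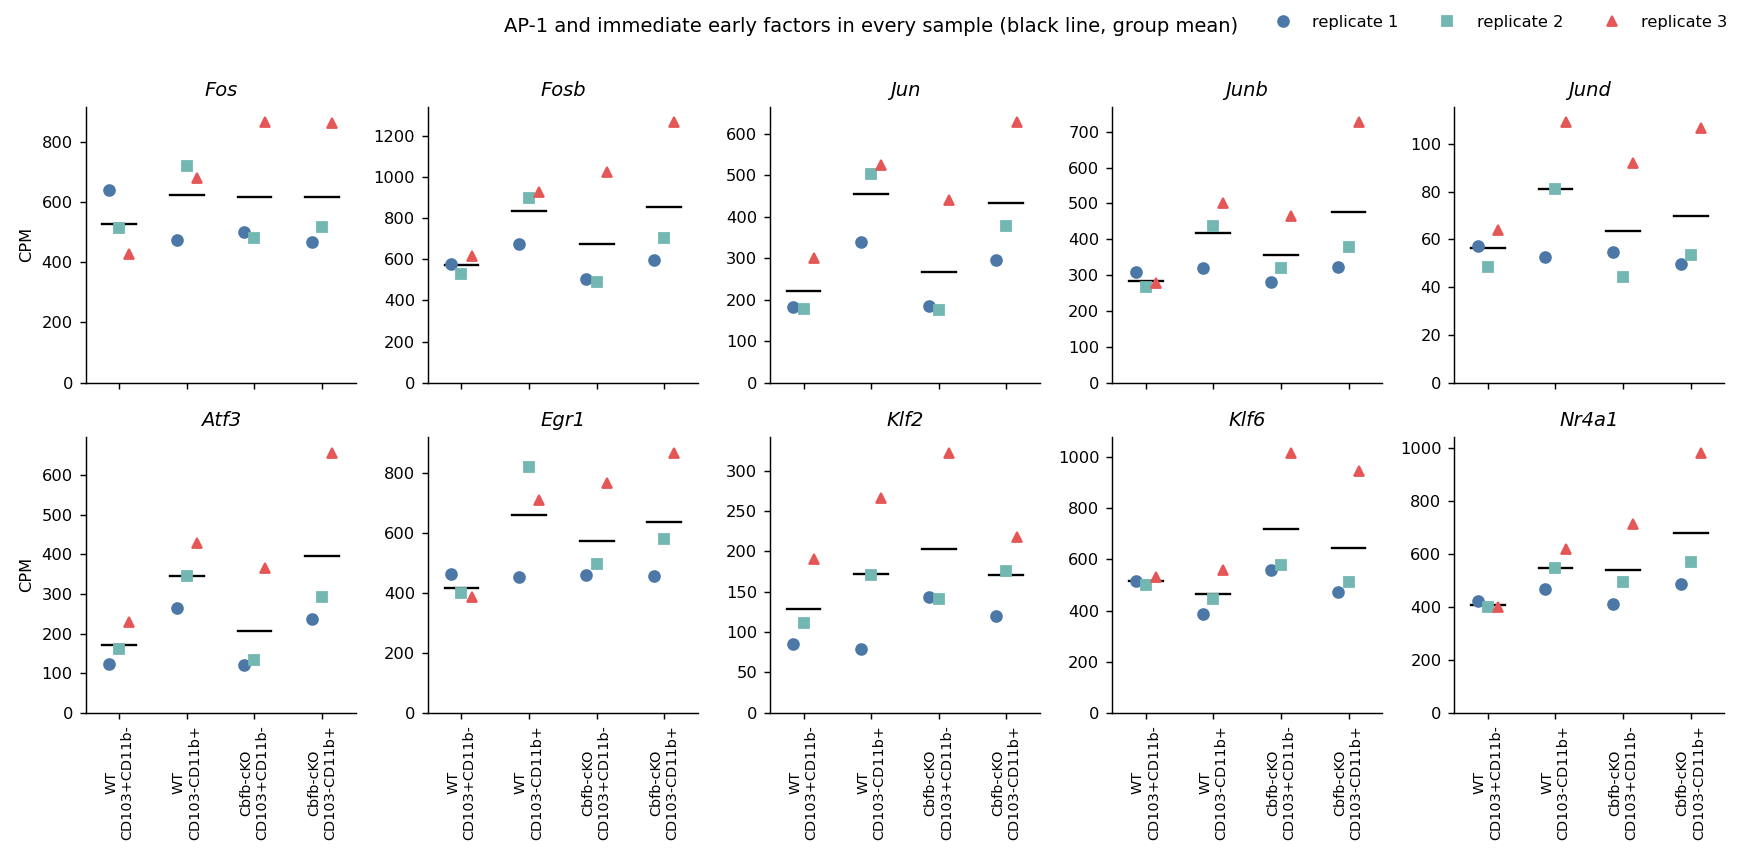
Level of each of the 10 genes in CPM (vertical axis, from 0) in the 3 samples of each of the 4 groups, with symbols by replicate number and a black line at the group mean. Replicate 3 is the highest symbol in 34 of the 40 gene and group pairs.

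The first question was whether the subsets of DCs differed in these genes, for which CD103-CD11b+ cells were compared with CD103+CD11b- cells within each genotype. In WT mice 9 of the 10 genes had a higher mean in CD103-CD11b+ cells, with a median log2 fold change of 0.53 beside 0.07 over all genes tested, and Klf6 had a lower one (-0.16). The median was 0.32 to 0.69 with a sample left out, the lowest without the WT CD103-CD11b+ replicate 3. None passed the test in either direction (edgeR's quasi-likelihood test over 20580 genes, with adjusted p under 0.05 and a fold change over 1.3), where 18.8% of all genes did. At an unadjusted p under 0.05, 2 genes differed, Jun and Egr1, as did 34.3% of all genes, and DESeq2 called 1, Jun, where it called 21.8% of all genes. The groups of 5 genes (Fosb, Jun, Junb, Atf3 and Nr4a1) did not overlap, with CD103-CD11b+ cells higher, while 21.4% of all genes were apart in that direction and 16.7% in the other.

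The largest difference in WT mice on the log2 scale was that of Jun, from a mean of 220 ± 70.1 CPM to 456 ± 101 CPM (SD, n = 3 each). Its log2 fold change was 1.05 (95% interval 0.18 to 1.91), with an edgeR adjusted p of 0.0853 and a DESeq2 adjusted p of 0.0378. Atf3 rested on 171 ± 53.3 and 346 ± 82.1 CPM, a log2 fold change of 1.01 (-0.03 to 2.06) with an edgeR adjusted p of 0.156. The log2 fold change of Egr1 was 0.67 (0.05 to 1.28), with an edgeR adjusted p of 0.119. With the 4 samples numbered 3 left out, a choice made after seeing the data, the log2 fold changes of Jun and Atf3 were 1.228 and 1.099 and both passed the test in edgeR (adjusted p = 0.00833 and 0.00973), so that 2 of 10 genes were called where 19.2% of all genes were. Leaving out the Cbfb-cKO CD103+CD11b- replicate 3 alone, which enters only the shared estimate of the spread, also brought Jun past the threshold (edgeR adjusted p = 0.0390), where 18.5% of all genes were called.

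In Cbfb-cKO mice the subsets differed by a median log2 fold change of 0.24 over the 10 genes, beside 0.10 over all genes, but single libraries set its size and direction. It was -0.10 with 2 genes positive without the Cbfb-cKO CD103-CD11b+ replicate 3 and 0.54 with 10 positive without the Cbfb-cKO CD103+CD11b- replicate 3. Without replicate 1 or 2 it was 0.102 or 0.106 when the sample was of Cbfb-cKO CD103+CD11b- cells, and 0.386 or 0.33 when it was of Cbfb-cKO CD103-CD11b+ cells. Again none passed the test, where 16.1% of all genes did. The count at an unadjusted p under 0.05 was 0 as well, beside 31.9% of all genes, and DESeq2 called 0, beside 20% of all genes. No gene of the 10 was apart between these groups, while 18.4% of all genes were apart with CD103-CD11b+ cells higher and 15.6% with them lower. Atf3 had means of 207 ± 138 and 395 ± 228 CPM and a log2 fold change of 0.93 (-0.11 to 1.97), with an edgeR adjusted p of 0.203. For Jun the means were 268 ± 151 and 434 ± 173 CPM and the log2 fold change 0.70 (-0.16 to 1.56), with an edgeR adjusted p of 0.245. Fos had the same mean in both subsets, 616 CPM, and a log2 fold change of 0.00 (-0.64 to 0.64).

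The samples of the 2 Cbfb-cKO subsets that carried the same replicate number deviated together, so that a fit with the number as a block was made. Under the replicate block 2 of the 10 genes were called, where 21.5% of all genes were. Atf3 was higher in CD103-CD11b+ cells in 3 of 3 pairs, with a log2 fold change of 0.98 (SE 0.09) and an edgeR adjusted p of 0.000434. Jun was higher in 3 of 3 pairs too, by 0.76 (SE 0.16) on the log2 scale with an edgeR adjusted p of 0.0145. Fosb, Junb and Nr4a1 were also higher in 3 of 3 pairs, with blocked log2 fold changes of 0.36, 0.36 and 0.30 and edgeR adjusted p of 0.067, 0.15 and 0.0907. Klf6 was lower in 3 of 3 pairs, by 0.18 (edgeR adjusted p = 0.275). With the samples numbered 3 left out, Atf3 and Jun were again the 2 genes called, and 14.9% of all genes were. Without the Cbfb-cKO CD103+CD11b- replicate 3 alone they were called as well (edgeR adjusted p = 0.0390 and 0.0436), as were 11.4% of all genes.

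Markers of other cells moved with the subset. A list of 5 stromal and endothelial genes summed to 139 to 579 CPM in WT CD103+CD11b- cells, 714 to 1417 in WT CD103-CD11b+ cells, 104 to 358 in Cbfb-cKO CD103+CD11b- cells and 286 to 1479 in Cbfb-cKO CD103-CD11b+ cells, and 5 of 5 genes were found in each group. A list of 8 macrophage and monocyte genes summed to 22.6 to 114 CPM in the CD103+CD11b- samples and 328 to 669 CPM in the CD103-CD11b+ samples, with 8 of 8 found in each group. In WT CD103-CD11b+ cells Csf1r gave most of the sum (206 to 311 CPM). Ly6c2 went the other way in WT mice, at 23.5 to 50.6 CPM in CD103+CD11b- and 6.11 to 16.2 CPM in CD103-CD11b+ cells. A list of 6 B cell genes summed to 183 to 284 and 326 to 510 CPM in the WT subsets and to 95.5 to 332 and 374 to 736 CPM in the Cbfb-cKO subsets, in the order CD103+CD11b- and CD103-CD11b+. The part of these lists in the levels of the 10 genes was not tested. The study took gut conventional DCs to be CD45+CD64-CD11c+MHC-II+ cells, a gate that would remove epithelium, stroma and endothelium, which lack CD45, and CD64+ macrophages. Its description of the sort for sequencing names CD103 and CD11b, so whether the full gate was applied there is not given in the sources used here. In sorted bulk samples more cells of a type and more RNA per cell cannot be told apart.

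The second question was whether loss of Cbfb changed these genes. In CD103-CD11b+ cells the means of 5 genes were higher and those of 5 lower in Cbfb-cKO mice, with a median log2 fold change of 0.02 beside -0.06 over all genes. The count of genes that passed edgeR's test was 0, where 1.61% of all genes did, at an unadjusted p under 0.05 it was 0, beside 17.4% of all genes, and in DESeq2 it was 0, beside 5.52% of all genes. The samples of 0 of the 10 were apart, as were those of 9.75% of all genes with Cbfb-cKO higher and 10.3% with it lower. The largest difference was that of Klf6, from 464 ± 88.6 to 644 ± 263 CPM, a log2 fold change of 0.47 (-0.16 to 1.11) with an edgeR adjusted p of 0.420. Jund had the lowest, -0.23 (-1.01 to 0.56).

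In CD103+CD11b- cells the means of all 10 genes were higher in Cbfb-cKO mice, by log2 fold changes of 0.16 for Jund to 0.64 for Klf2 with a median of 0.30, beside -0.02 over all genes. None passed edgeR's test, where 1.02% of all genes did, 0 had an unadjusted p under 0.05, beside 10.5% of all genes, and DESeq2 called 0, beside 3.17% of all genes. Klf6 rested on 517 ± 15.9 and 719 ± 260 CPM (log2 fold change 0.48, -0.16 to 1.11, edgeR adjusted p = 0.676). Its samples did not overlap, as was so in this direction for 7.51% of all genes and in the other for 10.6%. For Klf2 the means were 129 ± 54.7 and 202 ± 104 CPM and the log2 fold change was 0.64 (-0.39 to 1.68, edgeR adjusted p = 0.769). This uniform direction rested on 1 library: without the Cbfb-cKO CD103+CD11b- replicate 3 the median log2 fold change was -0.01 with 5 genes positive, while it was 0.28 to 0.51 with 10 genes positive when any other sample was left out. In CD103-CD11b+ cells the median was -0.35 with 1 gene positive without the Cbfb-cKO replicate 3 and 0.24 with 10 positive without the WT replicate 3. With the samples numbered 3 left out of all groups the medians were 0.03, with 6 genes positive, in CD103+CD11b- cells and -0.24, with 3 genes positive, in CD103-CD11b+ cells.

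Marker lists parted between the genotypes too. In CD103+CD11b- cells the cDC2 list summed to 378 to 590 CPM in WT and 80.0 to 123 CPM in Cbfb-cKO samples, and the plasmacytoid DC list to 568 to 1336 and 183 to 486 CPM. The epithelial list summed there to 113 to 266 and 19.99 to 102.9 CPM, the T cell and ILC list to 127 to 279 and 43.4 to 90.1 CPM and the macrophage list to 91.2 to 114 and 22.6 to 83.2 CPM. The epithelial sums were carried by Cdh1 (71.5 to 218 CPM in WT and 4.53 to 44.4 CPM in Cbfb-cKO samples) and Epcam, while Vil1 and Fabp2 were at 0.705 to 1.72 CPM in WT and 2.32 to 15.1 CPM in Cbfb-cKO samples. The T cell and ILC sums were carried by Il7r and Cd4, with Cd3e at 0.235 to 14.8 and 0.464 to 13.96 CPM. In CD103-CD11b+ cells the epithelial list was apart at 181 to 372 CPM in WT and 53.4 to 90.7 CPM in Cbfb-cKO samples, and the list of 7 conventional DC genes at 2867 to 3090 and 3125 to 4951 CPM. Of the latter, Itgax (599 to 762 and 819 to 1194 CPM) and Ccr7 (43.5 to 156 and 220 to 371 CPM) were apart. Its other genes overlapped, among them Zbtb46 (194 to 385 and 198 to 233 CPM) and Flt3 (205 to 379 and 214 to 271 CPM). The part of these lists in the levels of the 10 genes was not tested.

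The difference of the Cbfb effect between the subsets was tested as an interaction. It was negative for all 10 genes, from -0.645 for Klf2 to -0.003 for Klf6, with a median of -0.22. Its sign depended on single libraries: without the Cbfb-cKO CD103+CD11b- replicate 3 the median was 0.13 with 7 genes positive, and without the Cbfb-cKO CD103-CD11b+ replicate 3 it was -0.62 with 0 positive. With any other sample left out it was -0.39 to -0.03, with 0 to 5 genes positive. The edgeR count of calls was 0, where 0.651% of all genes were called, at an unadjusted p under 0.05 it was 0, beside 11.1% of all genes, and in DESeq2 it was 0, beside 2.46% of all genes. The 95% intervals reached 0.57 to 1.04 to either side of a log2 fold change in the comparisons of 2 groups and 0.81 to 1.46 in the interaction.

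**Figure D2:**
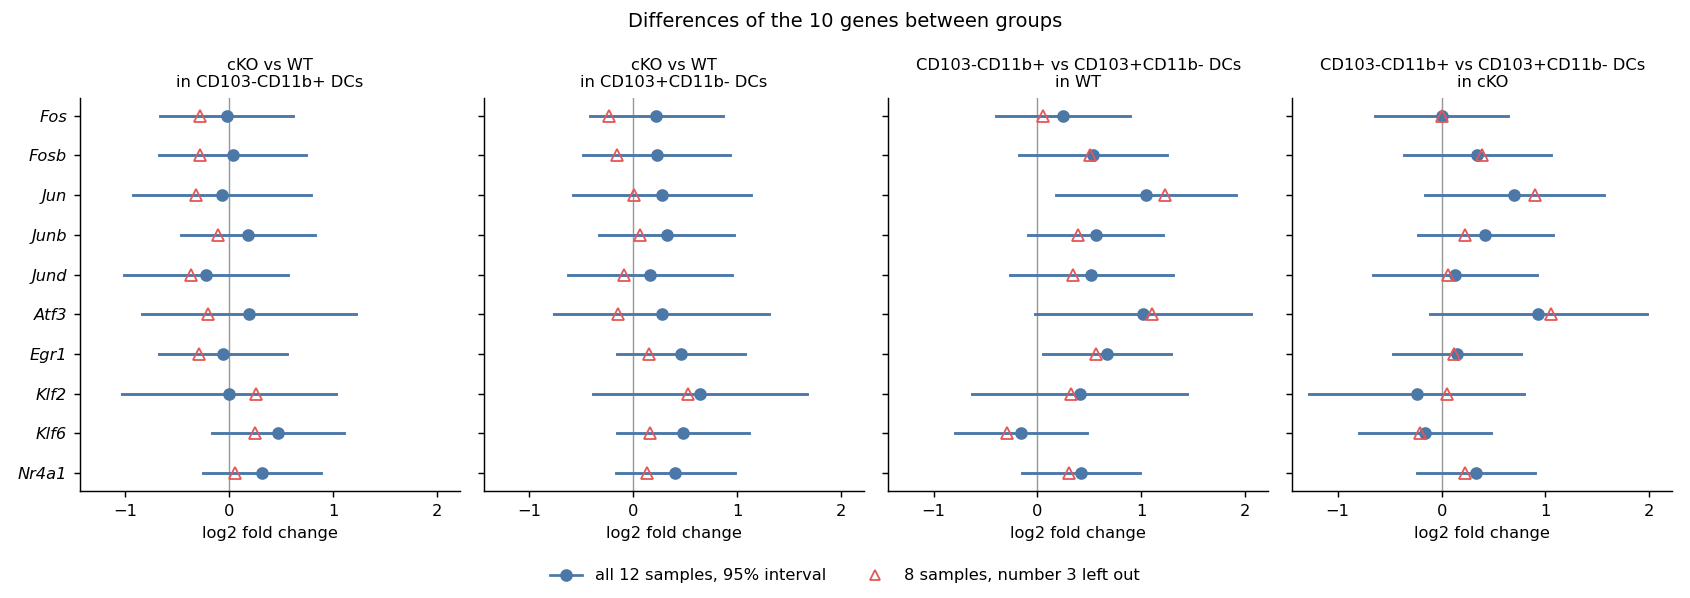
Log2 fold change (horizontal axis) of each gene in the 4 comparisons of 2 groups, with circles and 95% intervals from all 12 samples and open triangles from the 8 samples left when number 3 was left out of every group. Intervals exclude 0 for Jun and Egr1 in the WT subset comparison, and the triangles lie below the circles for most genes in both comparisons of genotypes.

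The widest pattern in the 10 genes was among replicates of one group. Replicate 3 held the highest value in 34 of 40 gene and group pairs (85%), replicate 1 in 4 and replicate 2 in 2, while replicate 3 was highest in 41.0% of the pairs for the 8500 genes with a mean of at least 20 CPM. By group the count was 6 of 10 genes in WT CD103+CD11b- cells, 8 of 10 in WT CD103-CD11b+ cells and 10 of 10 in each Cbfb-cKO group. The shares of the 8500 genes were 39.5 and 34.0% in these WT groups, and 44.5 and 45.9% in Cbfb-cKO CD103+CD11b- and CD103-CD11b+ cells. Replicate 3 was the highest in all 4 groups for 6 of the 10 genes, as for 11.4% of the 8500 genes. The median ratio of replicate 3 to the mean of replicates 1 and 2 was 1.08 and 1.28 in the WT groups and 1.83 and 1.89 in the Cbfb-cKO groups, beside medians of at most 1.02 over the 8500 genes in each group. Atf3 had the highest ratios, 2.87 in Cbfb-cKO CD103+CD11b- cells and 2.48 in Cbfb-cKO CD103-CD11b+ cells. Fos in WT CD103+CD11b- cells had the lowest, 0.742. The pattern was noticed in these values and is given as a description.

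The spread within groups was wide. The SD of log2 CPM around the group means had a median of 0.421 over the 10 genes, from 0.350 for Nr4a1 to 0.669 for Klf2, beside 0.219 over the 8500 genes, and the 10 stood at the percentiles 77.3 to 92.4 of those genes. Without the samples numbered 3 the medians were 0.229 and 0.158.

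Genes that answer to heat and to dissociation moved with replicate 3 as well. Of 10 heat shock and chaperone genes with at least 20 CPM, replicate 3 was the highest for 9 in WT CD103+CD11b- cells and for 10 in each of WT CD103-CD11b+, Cbfb-cKO CD103+CD11b- and Cbfb-cKO CD103-CD11b+ cells, with median ratios in that order of 3.17, 1.93, 2.69 and 1.95. It was so for 39.5, 34.0, 44.5 and 45.9% of the 8500 genes. Hsph1, a chaperone that works with Hsp70, was at 124, 123 and 464 CPM in WT CD103+CD11b- cells, at 106, 57.3 and 260 CPM in WT CD103-CD11b+ cells, at 155, 173 and 630 CPM in Cbfb-cKO CD103+CD11b- cells and at 96.3, 216 and 587 CPM in Cbfb-cKO CD103-CD11b+ cells. Replicate 3 of Hsph1 was thus above both others in every group, also in WT CD103+CD11b- cells, where Fos, Egr1 and Nr4a1 were lowest in replicate 3. Dnaja1, a cochaperone of Hsp70, had ratios of 3.11, 1.82, 3.42 and 2.05. Hspa1a and Hspa1b, near-identical copies that counting can split wrongly, had ratios of 2.39 to 3.35 and of 2.37 to 4.35.

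Other immediate early genes shared the pattern. Of 29 such genes with at least 20 CPM, replicate 3 was the highest for 17, 20, 24 and 24 in the same order of groups, with median ratios of 1.15, 1.31, 1.52 and 1.90. The shares of the 8500 genes were 39.5, 34.0, 44.5 and 45.9%. The 16 other AP-1 and bZIP genes had median ratios of 1.203, 1.089, 1.164 and 1.199. The 17 MAP kinases and Srf and Elk factors that act upstream had median ratios of 0.98, 0.98, 1.03 and 1.09, and replicate 3 was the highest for 5, 5, 10 and 11 of them, beside the same shares of the 8500 genes. Markers of cell types differed in replicate 3 too. Tcf4, of the plasmacytoid DC list, was lowest there in all 4 groups (739, 669 and 336 CPM in WT CD103+CD11b- cells). Cd74 was highest there in both Cbfb-cKO groups (614, 620 and 932 CPM, and 572, 587 and 1075 CPM) and lowest in WT CD103+CD11b- cells (824, 616 and 481 CPM). Whether tissue digestion, the share of reads on genes, the mix of cells or another property of the third libraries moved these levels was not tested, and a day of preparation cannot be told apart from the replicate number.

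**Figure D3:**
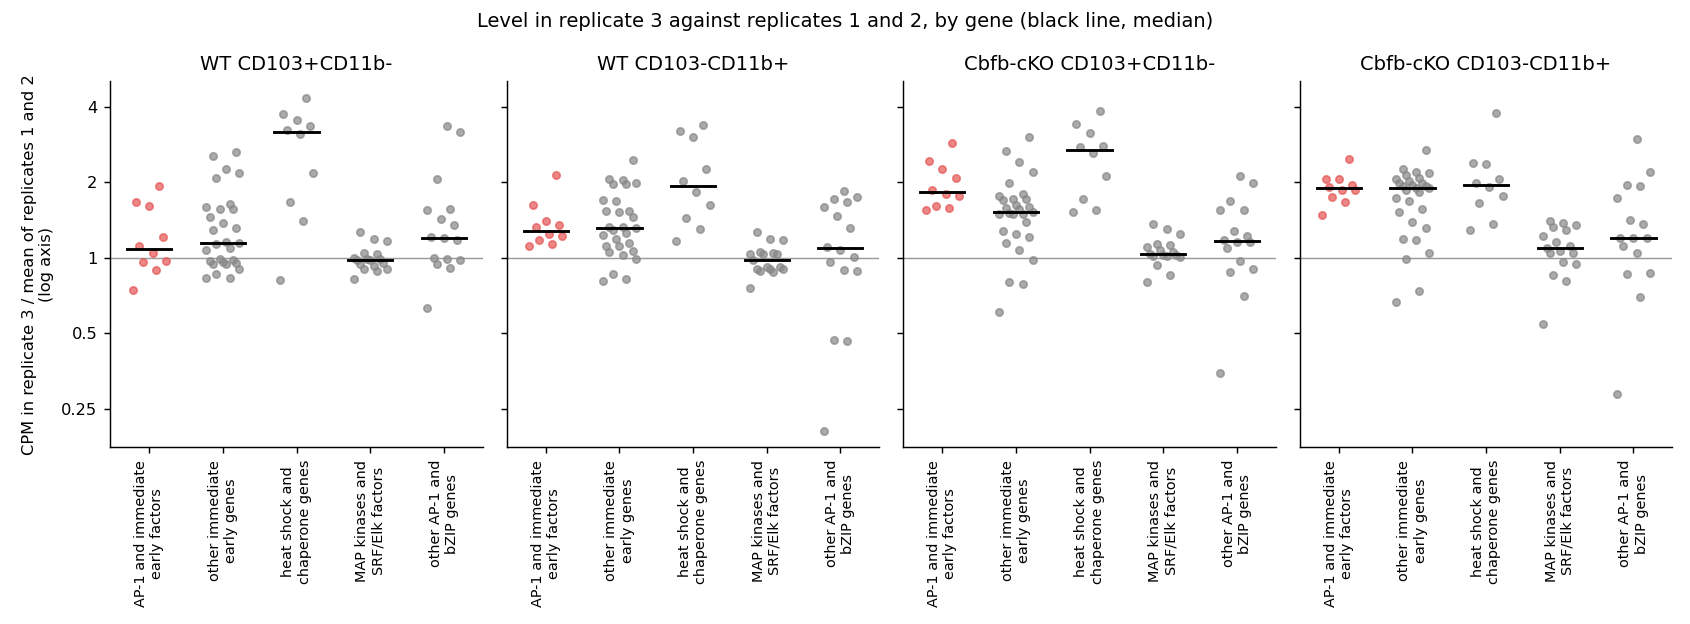
Ratio of the CPM in replicate 3 to the mean of replicates 1 and 2 (vertical log axis) for every gene of each list with at least 20 CPM, in 1 panel per group, with a black line at the median. The 10 factors lie around 1.08 in WT CD103+CD11b- cells and around 1.83 and 1.89 in the Cbfb-cKO groups, heat shock genes are high in all 4 panels, and the upstream kinases lie near 1.

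Likeness to the mean of the 10 factors within groups was ranked among 8490 other genes. It was the correlation, over the 12 samples, of deviations of log2 CPM from the group means, so that differences between groups did not enter. The highest were Dusp1 (Pearson's r = 0.993, Spearman's rho = 0.972), Sqstm1 (r = 0.983, rho = 0.986), Rab6a (r = 0.983, rho = 0.944), Selenok (r = 0.980, rho = 0.965) and Cdkn1b (r = 0.975, rho = 0.965). Without the 2 samples farthest from the median their r was 0.943 to 0.982. They were picked for the highest r, share libraries with the factors, and so carry no test. Dusp1, a phosphatase that switches off MAP kinases and is itself an immediate early gene, was at 285, 286 and 325 CPM in WT CD103+CD11b- cells and at 321, 373 and 672 CPM in Cbfb-cKO CD103-CD11b+ cells.

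**Figure D4:**
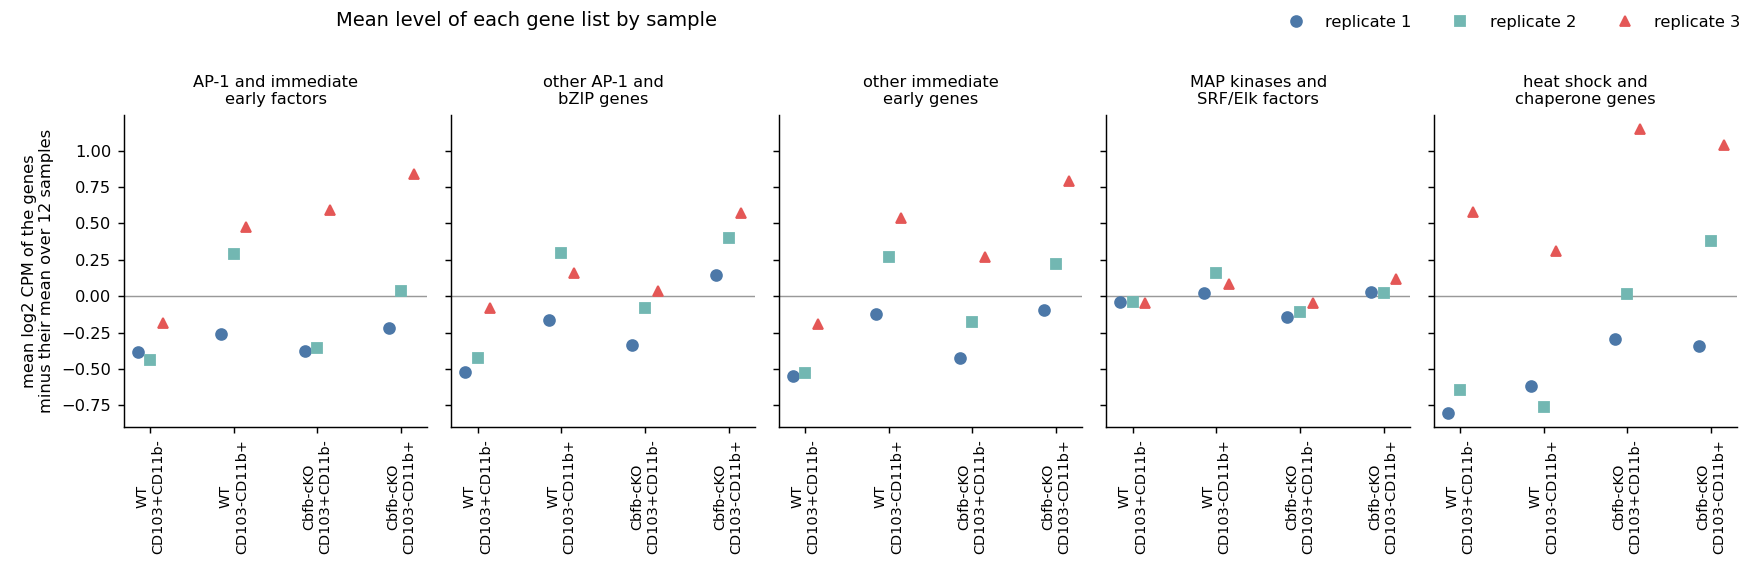
Mean log2 CPM of the genes of each list in each sample, less their mean over the 12 samples (vertical axis), by group and replicate number. Replicate 3 is the highest of its group for the 10 factors, for the other immediate early genes and for the heat shock genes in all 4 groups, and the upstream kinases differ little between samples.

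Other genes of the pathway were counted in the same fit. Of 19 other AP-1 and bZIP genes, 3 were higher and 1 lower in CD103-CD11b+ cells of WT mice, and 4 were higher and 1 lower in those of Cbfb-cKO mice, where 11.8% and 9.26% of all genes were higher and 7% and 6.81% lower. With the replicate block the count in Cbfb-cKO mice was 6 higher and 3 lower, where 12.9% and 8.6% of all genes were, and without the samples numbered 3 the counts were 4 higher and 0 lower in WT and 5 and 1 in Cbfb-cKO mice, where 12% and 7.17% of all genes were higher and lower in WT and 8.86% and 6.05% in Cbfb-cKO mice. Fosl2, the Fos family member Fra-2, was at 144, 122 and 273 CPM in WT CD103+CD11b- cells, at 427, 731 and 850 CPM in WT CD103-CD11b+ cells, at 147, 259 and 238 CPM in Cbfb-cKO CD103+CD11b- cells and at 488, 767 and 1086 CPM in Cbfb-cKO CD103-CD11b+ cells. Its subsets were apart in both genotypes, by log2 fold changes of 1.89 (SE 0.39, edgeR adjusted p = 0.0100) and 1.86 (SE 0.39, edgeR adjusted p = 0.00835). Batf was higher in CD103-CD11b+ cells of both genotypes, from 13.5 to 25.2 CPM in WT and from 12.1 to 23.9 CPM in Cbfb-cKO cells, with the WT call lost with a sample left out (edgeR adjusted p up to 0.0658). Batf3, the factor that cDC1 cells need, fell by 0.47 and 0.54 on the log2 scale (edgeR adjusted p = 0.0371 and 0.0226), a call lost with a sample left out (up to 0.130 and 0.0799). Atf6, a sensor of unfolded protein, was the 1 gene of the list called between genotypes in the fit without a replicate block, in CD103-CD11b+ cells, where 1.11% of all genes were higher in Cbfb-cKO mice and 0.5% lower. It was at 261 ± 10.4 CPM in WT and 390 ± 41.6 CPM in Cbfb-cKO CD103-CD11b+ cells (log2 fold change 0.58, edgeR adjusted p = 0.0172, up to 0.0785 with a sample left out and 0.05005 without the samples numbered 3).

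Of 30 other immediate early genes, 8 were higher and 0 lower in CD103-CD11b+ cells of WT mice, with a median log2 fold change of 0.56 over the list, and 4 were higher and 2 lower in those of Cbfb-cKO mice, where the shares of all genes were 11.8% and 7% in WT and 9.26% and 6.81% in Cbfb-cKO mice. With the replicate block 12 were higher and 4 lower in Cbfb-cKO mice (12.9% and 8.6% of all genes). Without the samples numbered 3 the counts were 12 and 1 in WT (12% and 7.17% of all genes) and 7 and 2 in Cbfb-cKO mice (8.86% and 6.05%). Socs3, a feedback inhibitor of cytokine signals, rose from 82.0 ± 7.61 to 332 ± 76.5 CPM in WT (log2 fold change 2.02, SE 0.18, edgeR adjusted p = 8.52e-05) and from 69.3 ± 10.2 to 185 ± 20.4 CPM in Cbfb-cKO cells (1.41, SE 0.18, edgeR adjusted p = 0.000354). Ier3 rose in WT cells from 13.5 ± 8.31 to 84.5 ± 41.5 CPM, Klf10 from 35.0 ± 9.78 to 98.1 ± 30.4 CPM and Dusp6, a phosphatase of ERK, from 90.2 ± 4.53 to 202 ± 69.1 CPM. With a sample left out, the highest edgeR adjusted p was 0.0404 for Ier3, 0.0662 for Klf10 and 0.0521 for Dusp6. In Cbfb-cKO cells Trib1 fell by 1.18 on the log2 scale, from 355 ± 49.7 to 157 ± 66.6 CPM.

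Between genotypes 1 gene of that list was called in CD103-CD11b+ cells, where 1.11% of all genes were higher in Cbfb-cKO mice and 0.5% lower. In CD103+CD11b- cells 2 were called, where 0.224% of all genes were higher and 0.797% lower. Socs3 was lower in Cbfb-cKO CD103-CD11b+ cells by a log2 fold change of -0.84 (SE 0.17, edgeR adjusted p = 0.0422). Egr2, a zinc finger factor of the Egr1 family, was at 79.3, 74.4 and 123 CPM in WT and at 177, 299 and 359 CPM in Cbfb-cKO CD103+CD11b- cells (log2 fold change 1.59, SE 0.30, edgeR adjusted p = 0.0394). Klf13 was lower there, at 168 and 112 CPM on average (-0.59, SE 0.12, edgeR adjusted p = 0.0444). All 3 calls were lost with a sample left out (edgeR adjusted p up to 0.122, 0.181 and 0.196) and without the samples numbered 3 (0.119, 0.0690 and 0.0984). Egr2, unlike Egr1, did not overlap between the genotypes in these cells.

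Of the 17 upstream kinases and factors, 3 were higher and 1 lower in CD103-CD11b+ cells of WT mice and 5 were higher and 4 lower in those of Cbfb-cKO mice, beside shares of all genes of 11.8% and 7% in WT and 9.26% and 6.81% in Cbfb-cKO mice. Mapk3, the kinase ERK1, was at 44.8 ± 5.07 and 101 ± 15.9 CPM in the WT subsets and at 39.2 ± 1.501 and 67.9 ± 4.75 CPM in the Cbfb-cKO subsets (log2 fold changes 1.17 and 0.79, edgeR adjusted p = 0.000579 and 0.00315). Elk3 was higher by 1.53 and 1.49, with the WT call lost with a sample left out (edgeR adjusted p up to 0.0538), while Map2k4, a kinase upstream of JNK, fell by 0.46 and 0.51 on the log2 scale. Srf, the factor that binds the CArG box, fell by 0.64 in Cbfb-cKO cells (edgeR adjusted p = 0.0127). Mef2c was at 267 ± 20.4 CPM in WT CD103+CD11b- cells, 372 ± 44.4 in WT CD103-CD11b+ cells, 191 ± 24.6 in Cbfb-cKO CD103+CD11b- cells and 513 ± 14.3 in Cbfb-cKO CD103-CD11b+ cells, and its WT subset call was lost with a sample left out (edgeR adjusted p up to 0.117). No gene of this list was called between genotypes within a subset by edgeR without a replicate block. In CD103-CD11b+ and CD103+CD11b- cells 3 and 2 had an unadjusted p under 0.05 (17.4% and 10.5% of all genes), and DESeq2 called 2 and 1 (5.52% and 3.17% of all genes).

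The 11 heat shock and chaperone genes had median log2 fold changes of 0.61 and 0.42 between Cbfb-cKO and WT in CD103-CD11b+ and CD103+CD11b- cells, beside 0.00 and 0.03 between the subsets in WT and in Cbfb-cKO mice. None was called by edgeR in these 4 comparisons in the fit without a replicate block, where 1.61, 1.02, 18.8 and 16.1% of all genes were. The counts at an unadjusted p under 0.05 were 1, 1, 1 and 0, beside 17.4, 10.5, 34.3 and 31.9% of all genes. DESeq2 called 0, 0, 1 and 0, beside 5.52, 3.17, 21.8 and 20% of all genes. The highest levels of Hsph1 and Dnaja1 were in replicate 3 of the Cbfb-cKO groups, as were those of 9 of the 10 factors, the exception being Jund.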

How the data were processed

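Total RNA of small numbers of sorted cells was turned into random-primed full-length libraries (RamDA-seq with modifications), tagged with Tn5 and sequenced on an Illumina HiSeq. The authors trimmed reads with Trim Galore, aligned them with STAR 2.7 to mm10, dropped poorly mapped and duplicate reads, and assigned the rest to genes of a GRCm38 annotation with HTSeq, ignoring strand. The deposited files hold these raw counts, 1 file per sample, and the 5 summary lines of the counter (61.2 to 67.3% of reads) were kept out of library sizes and tests.

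Gene symbols, exon lengths and positions came from GENCODE M21, which held 99.8% of the 53801 gene identifiers. Genes with at least 5 counts in at least 1 sample (20580) were fitted in 1 model of 4 groups with edgeR 4.0.16 (TMM, quasi-likelihood F test, Benjamini-Hochberg), in R 4.3.3. A gene was called at an adjusted p under 0.05 and a fold change over 1.3. Levels are CPM from TMM-scaled library sizes, except those of the marker lists and their genes, which were scaled by total counts on genes alone. SE is the log2 fold change divided by the square root of F, and 95% intervals use the t distribution. The scripts were tested on simulated data. Alternatives were DESeq2 1.42.0, other scalings and filters, each pair of groups alone, a replicate block, each sample left out and, added after seeing the data, replicate number 3 left out of all groups. Intervals and counts cover the spread of these libraries only.

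Deviations from the group means of same-numbered samples, over all 20580 genes, correlated at r = 0.112, 0.321 and 0.354 between the Cbfb-cKO subsets, where every pair exceeded 0.1 and the numbers were taken as pairs. The labels do not say what a number marks. The other comparisons had at least 1 pair below that (r from -0.0911 to 0.422).

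The 10 genes, the 4 gene lists and the marker lists were chosen with earlier results of these data known. Named genes of the lists are up to 5 called genes per list and comparison with the lowest p, and levels of list genes shown for replicate number 3 were chosen after their values were seen. One gene of these lists is counted but not reported here.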

Additional observations from a re-analysis of the deposited data

Results flagged for a closer look

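One result outside the 10 factors was flagged, because the effect of Cbfb loss differed between the subsets by a test of that difference. Mef2c, a MADS box factor and a target of MAP kinases, had a difference of effects of 0.94 on the log2 scale (0.944, SE 0.17, edgeR adjusted p = 0.0411). Its mean was 267 CPM in WT and 191 CPM in Cbfb-cKO CD103+CD11b- cells, and 372 CPM in WT and 513 CPM in Cbfb-cKO CD103-CD11b+ cells. The call was lost with a sample left out (adjusted p up to 0.146) and without the samples numbered 3 (adjusted p = 0.0545). Mef2c is 1 of 17 genes of its list, and 0.651% of all genes had such a difference.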

How the results depend on the processing

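The number of the 10 factors called in a comparison was 0 in all 5 comparisons and changed in the 2 subset comparisons only. In WT mice it was 6 of 10 with the replicate block (Fosb, Jun, Junb, Atf3, Egr1 and Nr4a1, where 25.2% of all genes were called), although same-numbered samples there did not all deviate together (r = 0.357, -0.0846 and 0.352). It was 2 without replicate number 3, 1 with DESeq2 and 0 to 1 with a sample left out. In Cbfb-cKO mice it was 2 with the replicate block, 2 without replicate number 3 and 0 to 2 with a sample left out. The replicate block called 0 of the 10 for Cbfb loss in CD103-CD11b+ and CD103+CD11b- cells and for the difference of effects, beside 4.13, 2.54 and 1.59% of all genes. For Cbfb loss in CD103-CD11b+ cells it called 2 of the other AP-1 and bZIP genes (higher), 1 higher and 1 lower of the upstream genes and 4 heat shock genes (higher), beside 2.72% and 1.4% of all genes. In CD103+CD11b- cells it called 0, 1 lower and 3 higher of these lists, beside 0.603% higher and 1.93% lower of all genes. For other immediate early genes the counts were 2 higher and 2 lower and 4 higher and 1 lower in the 2 subsets in that order. For the WT subsets it called 15 higher and 2 lower of the other immediate early genes, 5 and 2 of the other AP-1 and bZIP genes, 3 and 1 of the upstream genes and 0 and 1 of the heat shock genes, beside 16.1% higher and 9.17% lower of all genes. Another scaling, other filters, no limit on the fold change and the 6 samples alone called 0 in each comparison where they were run. The median SD within groups was 0.229 without replicate number 3 and 0.354 to 0.449 with a sample left out. Of 1040 log2 fold changes of single factors under alternatives, 16 were called and 37 moved by at least 1 SE without a call. The cause of these changes was not tested.

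The count of all genes called moved more. For the effect of Cbfb loss in CD103-CD11b+ cells it was 331, with 29 from the 6 samples alone, 573 with at least 5 counts in every sample, 849 with the replicate block and 1136 with DESeq2. In CD103+CD11b- cells it was 210, with 320 without a filter, 522 with the block and 652 with DESeq2. For the difference of effects it was 134, with 205, 328 and 506 in the same order. The WT subset count was 3860, with 2510 from the 6 samples alone, and that of Cbfb-cKO mice 3307. With a sample left out these counts ranged from 109 to 517 and from 46 to 241 for Cbfb loss in CD103-CD11b+ and CD103+CD11b- cells, from 29 to 208 for the difference of effects, and from 1408 to 4373 and 2118 to 3637 for the subsets in WT and Cbfb-cKO mice. Without replicate number 3 they were 215 for Cbfb loss in CD103-CD11b+ cells and 44 for the difference of effects. The factor with the lowest counts, Jund, had 167 reads in one library, and reads on the bases it shares with Gm11175 cannot be assigned.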
